A study of Mus musculus with 10 samples.

Results

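Transcripts of 35 skeletal muscle genes were followed in bulk RNA of 10 mammary tumours. The genes were chosen by name, as contractile proteins, calcium handling proteins and fuel enzymes of striated muscle fibres. Of the 35, 34 are among the 26063 genes of the deposited table, 29 passed the filter on low counts (at least about 10 counts in enough tumours) and 5 did not (Myh7, Myh8, Tnni1, Ampd1 and Sln). Tnnc2, the fast troponin C gene, was not analysed here.

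The tumours came from female FVB/N mice, 5 of genotype 16IC/WT (16IC here) and 5 of genotype EIC/WT (EIC here), 1 tumour per named animal. Every mouse of both genotypes had received doxycycline at 2 mg/ml, and tumours were collected at end point and flash frozen. The labels spell out neither 16IC nor EIC, and give no age, promoter or line for the alleles. The title of the series is about a HER2 splice variant and ENPP1. The numbers after the genotype names only tell tumours apart.

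Skeletal muscle fibres contract when calcium, released from the sarcoplasmic reticulum, binds troponin on the actin filament and lets myosin heads pull. Each adult fibre is built around a myosin heavy chain gene, Myh7 in slow oxidative fibres and Myh2, Myh1 or Myh4 in fast fibres of types IIa, IIx and IIb, and most troponin and light chain subunits exist in fast and slow versions. Mammary glands lie under the skin, over body wall and limb muscle and, in the mouse, beside thin sheets of subcutaneous muscle. Epithelial tumour cells do not assemble sarcomeres.

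Total counts were 14813940 to 16771426 in 16IC and 15690505 to 16947400 in EIC. The labelled tissue was checked against luminal epithelial genes, which were abundant in every library. Epcam, an epithelial adhesion protein, stood at 1556 to 2081 CPM (counts scaled to library size, with TMM factors) in 16IC and at 1225 to 1718 CPM in EIC. Krt8, a luminal keratin, stood at 605 to 1166 CPM in 16IC and at 696 to 1809 CPM in EIC. How strand was handled in counting is not stated, and 18 of the 34 muscle genes overlap another annotated gene, 17 of them on the other strand. Values of overlapping genes are therefore uncertain, as are those of the near-identical heavy chain genes. In bulk RNA, fewer muscle cells and less muscle RNA per cell cannot be told apart.

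Start sites of 26 of the 34 genes, with 31 windows, were found in the RefSeq promoter table (GRCm38.p6, 250 bases before to 50 after the start). Windows of 4 genes are printed because the results turn on them: Acta1 has the highest FPKM of the 34 in the richest tumour (748 in EIC 2), Myh4 and Myh1 set the fast fibre mix, and Myh7 is the slow heavy chain that was nearly missing. Capitals mark CAGCTG, an E-box bound by myogenic factors of the MyoD family, and the binding motif of MEF2 factors. All are written 5′ to 3′ on the strand of the gene. Acta1 lies at chr8:123894726-123895025 on the minus strand, Myh4 at chr11:67237562-67237861 on the plus strand, Myh1 at chr11:67199852-67200151 on the plus strand, and Myh7 at chr14:54994577-54994876 on the minus strand (1 of 2 windows of that gene).
Acta1: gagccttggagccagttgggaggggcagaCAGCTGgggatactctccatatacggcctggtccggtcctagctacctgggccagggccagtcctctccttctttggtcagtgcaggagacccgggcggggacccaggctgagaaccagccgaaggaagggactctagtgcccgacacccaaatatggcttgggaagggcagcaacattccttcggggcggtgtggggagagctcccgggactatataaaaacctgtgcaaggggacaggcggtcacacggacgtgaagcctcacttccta
Myh4: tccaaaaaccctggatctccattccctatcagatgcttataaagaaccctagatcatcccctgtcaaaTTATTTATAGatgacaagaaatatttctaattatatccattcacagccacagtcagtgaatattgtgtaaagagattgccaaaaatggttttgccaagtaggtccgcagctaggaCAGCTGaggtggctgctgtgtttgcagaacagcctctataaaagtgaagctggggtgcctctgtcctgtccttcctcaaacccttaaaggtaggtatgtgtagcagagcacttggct
Myh1: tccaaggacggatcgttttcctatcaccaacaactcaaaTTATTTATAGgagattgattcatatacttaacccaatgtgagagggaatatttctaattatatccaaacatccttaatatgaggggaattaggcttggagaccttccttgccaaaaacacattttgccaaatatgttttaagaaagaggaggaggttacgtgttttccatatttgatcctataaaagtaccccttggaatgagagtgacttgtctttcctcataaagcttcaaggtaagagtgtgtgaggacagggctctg
Myh7: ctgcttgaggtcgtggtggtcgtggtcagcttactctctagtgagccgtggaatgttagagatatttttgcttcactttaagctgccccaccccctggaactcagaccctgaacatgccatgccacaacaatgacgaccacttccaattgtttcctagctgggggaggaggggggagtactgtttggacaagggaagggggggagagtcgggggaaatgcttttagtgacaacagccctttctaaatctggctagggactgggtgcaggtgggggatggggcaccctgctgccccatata

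CAGCTG, searched on both strands, was found in 16 of the 31 windows (51.6%), against 16.3% of all 32851 windows in the table. The wider E-box CANNTG, which includes CAGCTG, was found in 27 windows (87.1%, against 72.3% of all windows). The MEF2 motif was found in 7 windows (22.6%, against 3.19%), those of Klhl41, Myh1, Myh4, Myh8, Pvalb, Ttn and Xirp2. Of the 4 printed windows, that of Myh4 holds both motifs, Myh1 only the MEF2 motif, Acta1 only CAGCTG, and Myh7 neither. TATAAA was found in 7 windows as well (22.6%, against 13.6%), Acta1, Myh1 and Myh4 among them. These are letter matches in a 300 base window and not measured binding.

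Muscle RNA differed widely between tumours of the same genotype. The 34 genes together held 9107, 818, 194, 1692 and 464 counts in tumours 1 to 5 of 16IC, and 29703, 66523, 501, 4694 and 8265 counts in tumours 1 to 5 of EIC. That is 0.0605%, 0.00489%, 0.00116%, 0.0114% and 0.00277% of all counts in the 16IC tumours, against 0.177%, 0.408%, 0.00305%, 0.0299% and 0.0488% in the EIC tumours. The richest tumour, EIC 2, had 353 times the share of the poorest, 16IC 3. The groups overlap: 16IC 1 was richer than 3 of the 5 EIC tumours, and EIC 3 was poorer than 3 of the 5 16IC tumours. Adding the 55 other skeletal muscle genes of a second list in the table brought the shares to 0.00930% to 0.0776% in 16IC and to 0.0202% to 0.477% in EIC. The highest of these shares was 51.3 times the lowest. In 16IC 3 the second list held 1646 counts beside the 194 of the members. Some of its genes hardly varied, such as Phka1 (10.6 to 15.9 CPM in 16IC, 10.3 to 17.8 CPM in EIC). In poor tumours the wider shares therefore do not measure muscle alone. No library of pure muscle was analysed here, so these are shares of counts on listed genes and not shares of tissue.

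A muscle score, the mean log2 CPM of the 29 tested genes, gave nearly the same order on one scale, with EIC 3 and 16IC 5 changing places. It was 3.64, -0.06, -1.84, 1.14 and -0.58 in tumours 1 to 5 of 16IC, and 4.83, 6.10, -1.04, 2.56 and 3.07 in tumours 1 to 5 of EIC. The mean was 0.46 ± 2.08 in 16IC and 3.11 ± 2.71 in EIC (SD, n = 5 each), a difference of -2.64, about as large as the spread within EIC. No test was made of a score over genes chosen by name. Scaling hardly depended on the muscle genes: leaving all members out before TMM changed the effective size of a library by 0.136% at most.

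**Figure D1:**
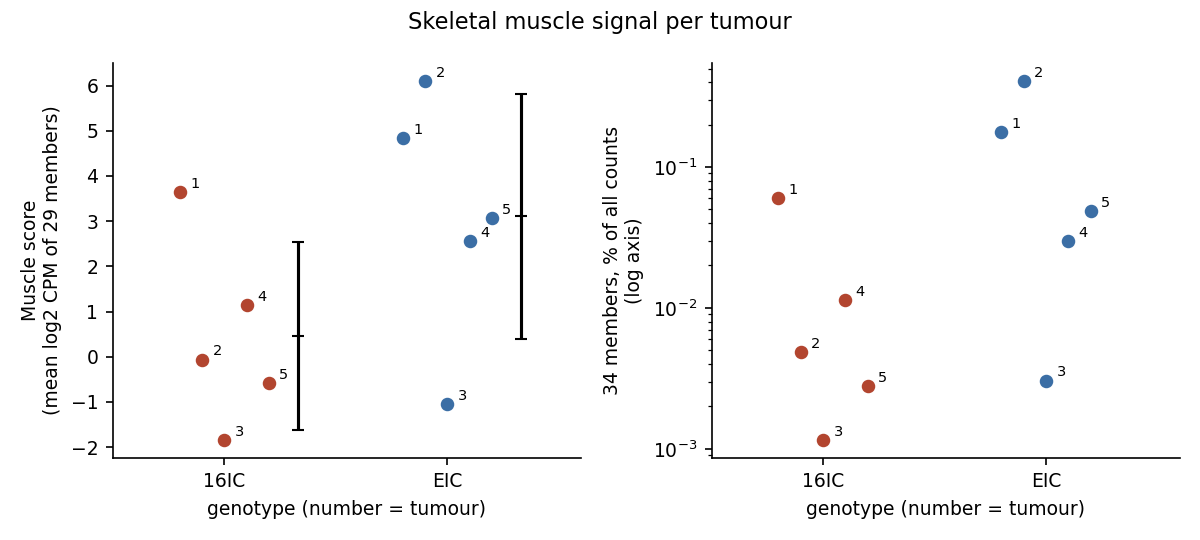
Left, the muscle score of each tumour (mean log2 CPM of 29 genes, bars: mean and SD, n = 5 each); right, the percent of all counts on the 34 muscle genes (log axis). 16IC tumours lie between -1.84 and 3.64 on the score and EIC tumours between -1.04 and 6.10, and both panels show 16IC 1 among the high tumours and EIC 3 among the low ones.

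The thin filament genes showed this spread. Acta1, the skeletal alpha actin of the thin filament (ENSMUSG00000031972, chromosome 8, 123891769 to 123894751, minus strand, GRCm38), was read 2698, 196, 1, 550 and 80 times in tumours 1 to 5 of 16IC. In tumours 1 to 5 of EIC it was read 8843, 20030, 22, 1235 and 2401 times. The groups overlap, since EIC 3 lies below 4 of the 16IC tumours. Acta1 alone made up 30.1% of the member counts in EIC 2. Its level was 49.6 ± 82.0 CPM in 16IC and 384 ± 490 CPM in EIC (SD, n = 5 each), and the log2 difference of 16IC over EIC was -2.96 with an SE of 1.65 (adjusted p = 0.455, edgeR quasi-likelihood test). Neb, the giant ruler of the thin filament, stood at 16.5, 0.653, 0.607, 2.53 and 0.644 CPM in tumours 1 to 5 of 16IC, and at 32.6, 58.7, 0.598, 3.93 and 5.17 CPM in those of EIC. The lowest Neb value belongs to EIC 3 and the 2 highest to EIC 2 and EIC 1.

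Of the troponin subunits, Tnni2, fast troponin I, stood at 16.5, 0.9498, 0.0607, 3.63 and 0.702 CPM in tumours 1 to 5 of 16IC, and at 47.3, 118, 0.419, 7.05 and 13.1 CPM in those of EIC. Tnnt3, fast troponin T, stood at 24.2, 1.96, 0.0607, 5.06 and 0.644 CPM in tumours 1 to 5 of 16IC, and at 79.1, 182, 0.179, 10.5 and 19.5 CPM in those of EIC. Both genes put EIC 2 and EIC 1 highest and 16IC 3 and EIC 3 lowest. The slow troponins lay far below the fast ones per length. In EIC 2, Tnni1 had 1.08 FPKM and Tnni2 76.5 FPKM, and Tnnt1 had 1.95 FPKM and Tnnt3 111 FPKM. Tnni1, slow troponin I, had 35, 3, 1, 5 and 2 counts in 16IC and 24, 68, 30, 3 and 9 counts in EIC. Tnnt1, slow troponin T, had 28, 14, 0, 5 and 0 counts in 16IC and 17, 75, 8, 7 and 14 counts in EIC. EIC 3, poor in the fast forms, held the 30 Tnni1 counts beside 7 counts of Tnni2.

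Z-disc, M-band and scaffold genes were also highest in EIC 2. Ttn, titin, the molecular spring of the sarcomere, had 483, 33, 0, 20 and 7 counts in 16IC and 1041, 1711, 7, 94 and 113 in EIC. Actn3, the alpha actinin of fast fibre Z-discs, had 197, 6, 0, 15 and 6 counts in 16IC and 809, 1933, 6, 57 and 267 in EIC. Actn2, the alpha actinin of all fibres, Tcap, the titin cap, Myoz1, a Z-disc protein of fast fibres, and Xirp2, an actin-binding repeat protein, all had their highest level in EIC 2, at 41.9, 49.7, 24.7 and 65.4 CPM. In 16IC 3 these 4 genes had 0, 0, 1 and 2 counts. Klhl41, a protein of sarcomere assembly and turnover, had 1 count in 16IC 3 and 415 in EIC 2.

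Calcium handling and excitation genes were highest in EIC 2. Atp2a1, the fast fibre calcium pump SERCA1, stood at 39.0, 2.97, 0.243, 7.18 and 0.644 CPM in tumours 1 to 5 of 16IC, and at 169, 363, 0.897, 31.0 and 52.4 CPM in those of EIC. Casq1, calsequestrin, which buffers calcium in the reticulum of fast fibres, stood at 3.24, 0.594, 0.364, 1.16 and 0.468 CPM in 16IC and at 12.1, 33.4, 1.02, 2.18 and 2.77 CPM in EIC. For Casq1 the groups overlap through 16IC 1, above EIC 3, EIC 4 and EIC 5, and 16IC 4, above EIC 3. Cacna1s, the voltage sensor of the transverse tubule, ran from 0 to 2.88 CPM in 16IC and from 0.0598 to 17.4 CPM in EIC. Pvalb, parvalbumin, a calcium buffer of fast mouse fibres, ran from 0 to 10.4 CPM in 16IC and from 0 to 75.01 CPM in EIC. Ryr1, the calcium release channel, ran from 0.364 to 11.1 CPM in 16IC and from 4.84 to 70.0 CPM in EIC, with EIC 3 at 4.84 CPM above 4 of the 16IC tumours. Sln, sarcolipin, an inhibitor of the pump, had 9, 1, 0, 12 and 0 counts in 16IC and 36, 38, 0, 0 and 3 in EIC.

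Fuel genes of the fibre included Ckm, muscle creatine kinase, at 25.0, 1.78, 0.243, 4.65 and 1.35 CPM in tumours 1 to 5 of 16IC and at 77.4, 202, 0.179, 14.1 and 28.7 CPM in those of EIC. Pygm, muscle glycogen phosphorylase, ran from 0.546 to 13.1 CPM in 16IC and from 0.718 to 99.1 CPM in EIC. Eno3, muscle enolase, ran from 4.19 to 15.9 CPM in 16IC and from 4.31 to 91.8 CPM in EIC. Its highest level was 21.9 times its lowest, whereas for Ckm this ratio was 1124. Ampd1, muscle AMP deaminase, had 24, 2, 0, 0 and 0 counts in 16IC and 50, 287, 2, 6 and 29 in EIC. Mb, myoglobin, the oxygen store of oxidative fibres, ran from 2.97 to 9.71 CPM in 16IC and from 7.93 to 26.2 CPM in EIC. Mb and Ryr1 overlap genes on the other strand.

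**Figure D2:**
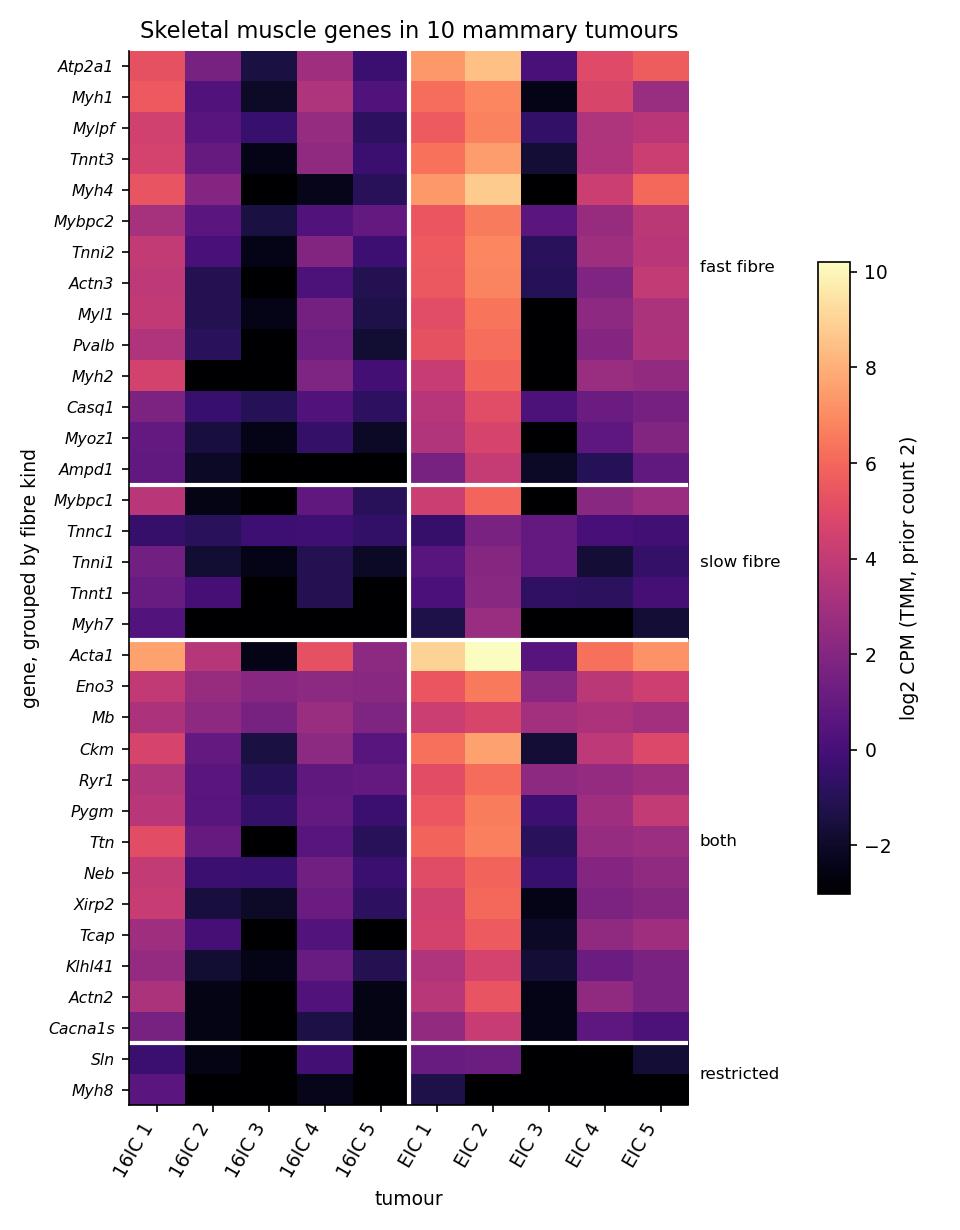
Heat map of log2 CPM (TMM, prior count 2) of the 34 muscle genes (rows, grouped by fibre kind and ordered by mean) in 10 tumours (columns, 16IC left, EIC right). 16IC 1, EIC 1 and EIC 2 are bright down nearly every row, 16IC 3 and EIC 3 are dark, and the rows of Tnnc1 and Mb vary least.

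The genes moved together from tumour to tumour. Over the 406 pairs of the 29 tested genes, Pearson's r of log2 CPM across the 10 tumours had a median of 0.942 and ran from 0.144 to 0.996. With the mean of the other members, Tnni2 had an r of 0.996 (Spearman's rho 1), Mb 0.903 (rho 0.830), Tnnt1 0.817 (rho 0.845) and Tnnc1, the troponin C of slow and cardiac muscle, 0.312 (rho 0.212). Without the 2 tumours farthest from the median, r was 0.996 for Tnni2, 0.799 for Mb, 0.616 for Tnnt1 and -0.282 for Tnnc1. These correlations are descriptions: the points share libraries, and EIC 2 and 16IC 3 lie far from the rest.

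In the poorest tumours the make-up of the remaining counts was different. Mb, Eno3, Ryr1, Tnnc1 and Tnni1, singled out after their values were seen, together held 6.07%, 26.9%, 70.6%, 11.9% and 37.1% of the member counts in tumours 1 to 5 of 16IC. In tumours 1 to 5 of EIC they held 5.69%, 4.95%, 69.1%, 10.3% and 7.37%. The share was highest where the muscle score was lowest. Eno3 had 69 of the 194 member counts of 16IC 3, and Mb had 133 of the 501 member counts of EIC 3. Acta1, by contrast, had 1 count in the first and 22 in the second. The defining fast heavy chain Myh4 was at 0 in both.

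The fast and slow fibre signal was compared through the myosin heavy chain genes. Myh2, Myh1, Myh4 and Myh8 stand in one cluster on the plus strand of chromosome 11 between 67171027 and 67308634, and Myh7 lies on the minus strand of chromosome 14 (54970684 to 54994626). Myh4 (IIb) had 585, 65, 0, 1 and 7 counts in 16IC and 2961, 7367, 0, 299 and 1087 in EIC. Myh1 (IIx) had 663, 20, 2, 151 and 19 counts in 16IC and 1290, 1983, 1, 419 and 105 in EIC. Myh2 (IIa) had 323, 0, 0, 49 and 14 counts in 16IC and 304, 1003, 0, 101 and 90 in EIC. In the 7 tumours with at least 50 heavy chain counts, Myh7 was at most 0.79% of the heavy chain signal per length.

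Per length, on the authors' FPKM values, the mix of fast chains was not the same in all tumours. Myh4 was the leading chain in 16IC 2 (77.4% of the summed heavy chain FPKM), and in EIC 1 (66.6%), EIC 2 (72.5%) and EIC 5 (85.97%). Myh1 led in 16IC 1 (41.7%) and 16IC 4 (77.0%), and in EIC 4 (50.8%). In 16IC 4 Myh4 made up 0.54%, with Myh2 at 22.2%. Both genotypes held tumours of either mix.

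Counting error does not cover these contrasts. Of the counts on Myh1 and Myh4, Myh1 took 53.1% in 16IC 1, 23.5% in 16IC 2 and 99.3% in 16IC 4, where 151 of 152 counts give a 95% exact Clopper-Pearson interval of 96.4% to 99.98%. In EIC it took 30.3%, 21.2%, 58.4% and 8.81% in tumours 1, 2, 4 and 5, the last with an interval of 7.26% to 10.6%. This order was not the order of muscle content: 16IC 2 and 16IC 4 both had little muscle RNA and very unlike shares. These intervals cover counting error only, and reads shared between near-identical heavy chain genes could shift the shares in every tumour.

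**Figure D3:**
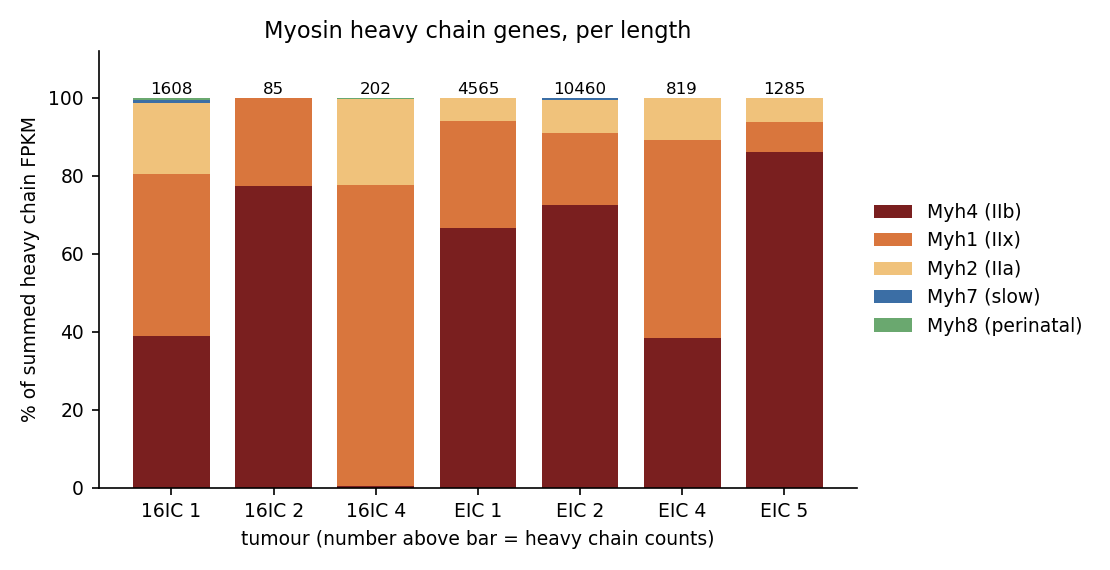
Share of each myosin heavy chain gene in the summed FPKM of Myh4, Myh1, Myh2, Myh7 and Myh8, in the 7 tumours with at least 50 heavy chain counts (numbers above the bars: counts). Myh4 takes 0.54% in 16IC 4 and 85.97% in EIC 5, and the slow chain Myh7 is at most 0.79%.

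The slow heavy chain was scarce throughout. Myh7 had 17, 0, 0, 0 and 0 counts in 16IC and 5, 107, 0, 0 and 3 counts in EIC. As a share of the adult chains this was 1.07% in 16IC 1 (exact 95% interval 0.625% to 1.71%), 1.02% in EIC 2 (0.839% to 1.23%), 0.110% in EIC 1 and 0.233% in EIC 5. None of 201 adult heavy chain counts in 16IC 4 and of 819 in EIC 4 fell on Myh7, which allows shares of up to 1.49% and 0.366% (3 counts of the total), with exact 95% upper limits of 1.82% and 0.449%. EIC 1 had 5 counts of Myh7 among 4560 (0.0356% to 0.256%), so EIC 1 and EIC 2 differ beyond counting error in this share. The slow light chains kept this pattern: Myl2 had 6 counts in 16IC 1, 66 in EIC 2 and 3 or fewer elsewhere, and Myl3 had 13 in 16IC 1, 55 in EIC 2 and 4 or fewer elsewhere.

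Myosin binding proteins gave a less one-sided picture. Mybpc1, the slow type myosin binding protein, had 182, 1, 0, 24 and 7 counts in 16IC and 330, 1029, 0, 71 and 109 in EIC. Mybpc2, the fast type, had 119, 24, 4, 17 and 31 counts in 16IC and 739, 1588, 25, 99 and 226 in EIC. Mybpc1 took 60.5% (54.7% to 66.0%), 58.5% (42.1% to 73.7%) and 18.4% (7.74% to 34.3%) of their joint counts in tumours 1, 4 and 5 of 16IC. In tumours 1, 2, 4 and 5 of EIC it took 30.9% (28.1% to 33.7%), 39.3% (37.4% to 41.2%), 41.8% (34.3% to 49.6%) and 32.5% (27.5% to 37.8%). Mybpc1 is also made in fast fibres, so it does not count slow fibres by itself. Tnni1 took 13.2% (9.37% to 17.9%) of the troponin I counts in 16IC 1 and 8.62% (2.86% to 19.0%) in 16IC 4. In tumours 1 to 5 of EIC it took 2.85%, 3.29%, 81.1%, 2.59% and 3.96%, and the high share in EIC 3 rests on 37 counts (64.8% to 92.0%).

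The mean log2 CPM of the 13 tested fast members minus that of the 3 tested slow ones (Mybpc1, Tnnt1 and Tnnc1) was 2.49, 1.01, -0.08, 1.36 and 0.87 in tumours 1 to 5 of 16IC. In tumours 1 to 5 of EIC it was 4.17, 3.41, -0.67, 2.40 and 2.74. It averaged 1.13 ± 0.93 in 16IC and 2.41 ± 1.85 in EIC (SD, n = 5 each). The difference was mostly larger where the muscle score was higher. It was -0.08 at a score of -1.84 (16IC 3), 2.40 at 2.56 (EIC 4), 4.17 at 4.83 (EIC 1) and 3.41 at 6.10 (EIC 2). Tnnc1, a slow gene of this mean, hardly followed the other members (r = 0.312). The group means therefore cannot be read as a difference in fibre mix between the genotypes. Where muscle RNA was near 0, both means were low, though above the value of a gene without counts (-3.02). The fast and slow means were -2.18 and -2.09 in 16IC 3, and -1.61 and -0.94 in EIC 3. They rest on few counts, so a small difference there does not describe a fibre mix.

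Developmental and regenerating muscle was looked for through other heavy chains and regulators. Myh8, the perinatal heavy chain, had 20 counts in 16IC 1, 1 in 16IC 4 and 0 in the other 16IC tumours, and 5 in EIC 1 and 0 in the other EIC tumours. Myh3, the embryonic heavy chain, had 40 counts in 16IC 1, 1 in 16IC 4 and 4 in EIC 1, and 0 elsewhere. EIC 2, with the most muscle, had 0 counts of both. Myod1, a master regulator of the myogenic lineage, had 4, 1, 0, 1 and 0 counts in 16IC and 34, 16, 0, 3 and 0 in EIC. Myog, which drives differentiation, had 4 counts or fewer in each 16IC tumour, 7 in EIC 1, 17 in EIC 2 and 0 in the other EIC tumours, and Pax7, which marks satellite cells, had 3 counts in EIC 2 and 0 elsewhere. Myh6, the atrial heavy chain, had at most 22 counts (EIC 2), and its neighbour Myh7 is its near-identical copy.

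By edgeR, no member was called between the genotypes. All 29 tested members had a negative log2 difference of 16IC over EIC, with a median of -2.91, against a median of -0.02 over all 14915 genes tested, of which 52.3% were lower. With edgeR's quasi-likelihood test 0 members had an adjusted p under 0.05, as did 0% of all genes. At an unadjusted p under 0.05, 11 of 29 members were lower in 16IC, against 6.29% of all genes. No member was lower without overlap of the groups, against 1.19% of all genes. Since the 29 members vary together across the 10 tumours, they are not 29 independent observations.

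DESeq2, fitted to the same counts, called 4 members, all lower in 16IC, against 1.27% of all genes. Mybpc2 stood at 8.56, 1.42, 0.243, 1.16 and 1.81 CPM in tumours 1 to 5 of 16IC, and at 42.7, 94.2, 1.495, 6.18 and 13.6 CPM in those of EIC. The log2 difference by DESeq2 was -3.58 with an SE of 0.95 (adjusted p = 0.0148). For Casq1 it was -3.14 with an SE of 0.88 (adjusted p = 0.0244), for Eno3 -2.30 with an SE of 0.68 (adjusted p = 0.0400), and for Ryr1 -2.90 with an SE of 0.88 (adjusted p = 0.0479), all by DESeq2. By edgeR the adjusted p of these 4 genes ran from 0.290 to 0.307. The authors' deposited table gives Mybpc2 an adjusted p of 0.0148, the same as the DESeq2 value here to the digits printed. It is therefore no separate support. The groups overlap for all 4 genes.

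These DESeq2 calls hung on single tumours. Without 16IC 1, the 16IC tumour with the most muscle, DESeq2 called 18 members and the median log2 difference by edgeR was -4.83. Without 16IC 4, without EIC 1 or without EIC 2 it called 0 members, and without EIC 2 the median was -1.69. Without EIC 1 and EIC 2 together the median was -0.65, 6 of the 29 members were higher in 16IC, and DESeq2 again called 0. Leaving out 16IC 2, 16IC 3 or 16IC 5 left 1 call each, and leaving out EIC 3, EIC 4 or EIC 5 left 6, 4 and 3.

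Muscle genes outside the 35 were taken from the second list of 57 names, 55 of them in the table and 34 tested. Of the 34, 32 were lower and 2 higher in 16IC, with a median log2 difference of -2.04, and edgeR called 0. DESeq2 called 5 of the 55, all lower in 16IC, against 1.27% of all genes: Pgam2, Trim63, Mss51, Txlnb and Srl. Whether these 5 calls hold without single tumours was not examined. Pgam2, muscle phosphoglycerate mutase, stood at 3.67, 2.61, 0.607, 2.26 and 1.76 CPM in 16IC and at 15.2, 36.9, 3.29, 4.49 and 10.3 CPM in EIC (log2 difference -2.69, adjusted p = 0.00512, DESeq2). Only 16IC 1 and EIC 3 keep the groups of Pgam2 from parting. Trim63, the ubiquitin ligase MuRF1 of muscle wasting, had 3, 0, 0, 0 and 0 counts in 16IC and 41, 66, 0, 26 and 28 in EIC. Srl, sarcalumenin of the reticulum, stood at 4.24 to 12.4 CPM in 16IC and at 13.5 to 41.5 CPM in EIC, without overlap. The groups did not overlap for Jph2, a junctophilin, either (0.479 to 3.92 CPM in 16IC and 4.56 to 24.7 CPM in EIC). Thus 2 of the 34 tested genes were lower without overlap, against 1.19% of all genes. Ldb3 and Srl had the highest mean levels of the list, and Ldb3, a Z-disc protein, averaged 15.9 ± 9.49 CPM in 16IC and 22.1 ± 10.5 CPM in EIC (SD, n = 5 each).

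The mean log2 CPM of these 34 other genes followed the muscle score with r = 0.968 and rho = 0.964 over the 10 tumours, and r was 0.956 without EIC 2 and 16IC 3. Of the 34, 16 had an r above 0.9 with the score. On the log2 summed CPM of all 55 genes, r was lower, at 0.803 (rho 0.745), and at 0.707 without EIC 2 and 16IC 3. Both lists were read in the same libraries, so this is a description and no separate test.

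How far muscle content moved with all other genes was asked in a fit of genotype and muscle score together. Of the 14915 genes, 0.329% rose with the score at an adjusted p under 0.05 (edgeR), members included. Of the 29 members, which make the score, 25 were called, and Myh4, Tnnt1, Tnnc1 and Mb were not. Outside the members, 31 genes were called, 24 rising and 7 falling with the score, and 13 of the 24 belong to the second muscle list. DESeq2 called 191 genes outside the members for the score.

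The genes most like the score were again genes of muscle fibres. Eef1a2, the elongation factor form of adult muscle and neurons, stood at 6.83, 0.416, 0, 0.890 and 0.0585 CPM in tumours 1 to 5 of 16IC, and at 21.7, 42.9, 0, 3.24 and 3.85 CPM in those of EIC. It had an r of 0.994 and a rho of 1 with the score over 10 tumours. Des, desmin, the intermediate filament of muscle, stood at 42.3, 7.12, 1.94, 10.5 and 3.804 CPM in 16IC and at 99.4, 192, 8.31, 22.3 and 22.8 CPM in EIC (r = 0.973). Fhl1, a LIM protein abundant in muscle, had an r of 0.964, and Myot, Myom2, Apobec2, Nrap and Cmya5 had values of 0.946 to 0.989. Mylf-ps, at 0.992, is annotated as a processed pseudogene of the fast alkali light chain, the family of the member Myl1, so its counts may be shared and are uncertain. Of 14007 other genes with a mean log2 CPM of at least 0, 14 had an r above 0.9 and 1 below -0.9, and the median absolute r was 0.197.

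Among the rising genes outside both muscle lists were Myo18b, Hfe2, Ckmt2, Xirp1, Csrp3 and Smyd1, all known from striated muscle, Des and Fhl1, and Pcx. Pcx, pyruvate carboxylase, is not a muscle marker: it stood at 222, 102, 67.0, 136 and 90.4 CPM in tumours 1 to 5 of 16IC and at 100.5, 201, 27.7, 90.5 and 137 CPM in those of EIC. Its slope was 0.35 log2 units per unit of the score with an SE of 0.05 (adjusted p = 0.0132, edgeR), against 1.36 for Eef1a2. The 7 falling genes were Slc2a1, Plod1, Rcor2, Egr1, P4ha2, Cxxc5 and Rlf. Slc2a1, the glucose transporter GLUT1, stood at 88.4, 161, 174, 138 and 164 CPM in 16IC and at 181, 169, 511, 219 and 224 CPM in EIC, with a slope of -0.21 and an SE of 0.03 (adjusted p = 0.0132, edgeR). 16IC 1, rich in muscle, had the lowest raw count of each of the 7, and EIC 3, poor in muscle, had the highest. In CPM, Cxxc5 was lower in EIC 1 (51.4) and EIC 2 (52.5) than in 16IC 1 (59.1). Over all 10 tumours, without genotype, the r of Slc2a1 with the score was -0.313 (rho -0.127).

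The lowest correlations belonged to genes that are not markers of muscle. Cldn3, a claudin of epithelial tight junctions, stood at 480, 617, 702, 616 and 600 CPM in tumours 1 to 5 of 16IC and at 428, 404, 655, 501 and 607 CPM in those of EIC, with an r of -0.921. Fyn, a kinase of the Src family, had -0.895, Tle6 -0.884, Gm38391 -0.881 and Lpar6, a lysophosphatidic acid receptor, -0.869. The edgeR test of the score called none of these 5, with adjusted p of 0.423 to 0.835.

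**Figure D4:**
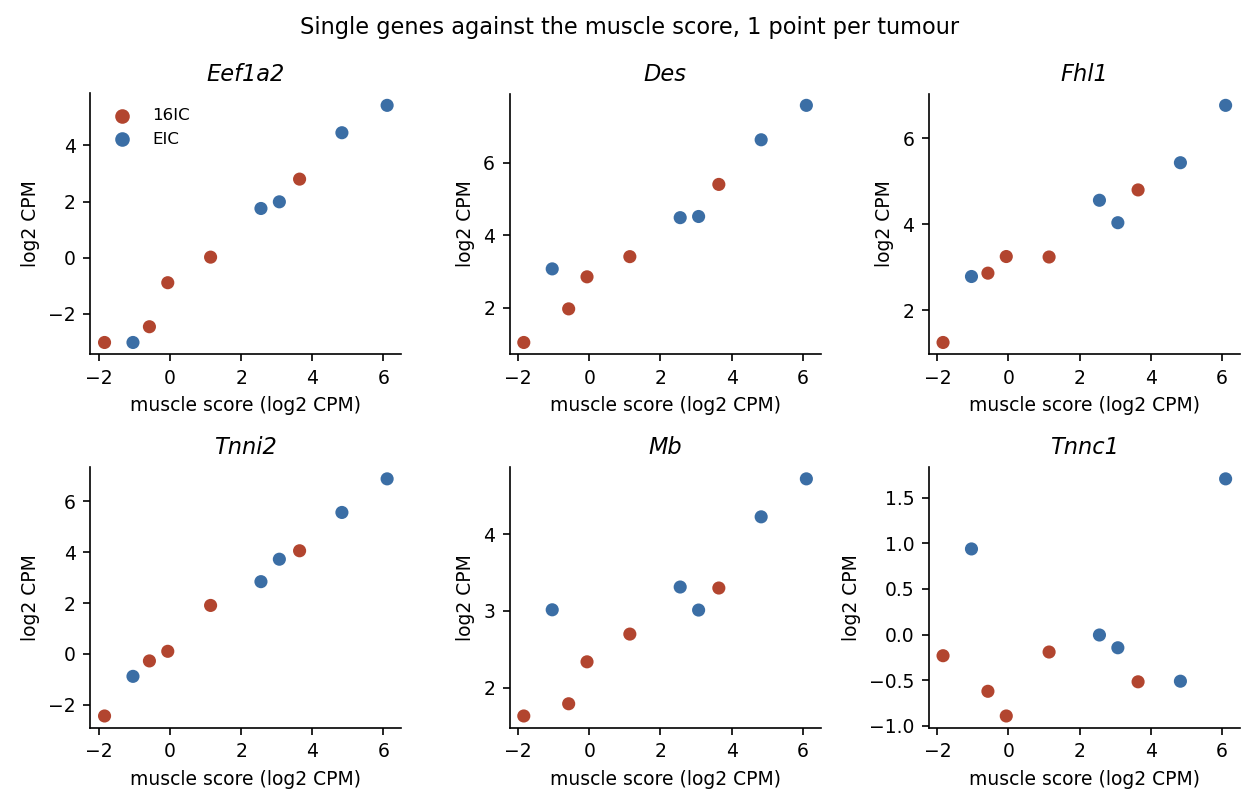
Log2 CPM of 3 genes outside the list (Eef1a2, Des, Fhl1) and 3 members (Tnni2, Mb, Tnnc1) against the muscle score, 1 point per tumour (red 16IC, blue EIC). Eef1a2 and Tnni2 climb along a line from 16IC 3 to EIC 2, Mb is flatter, and Tnnc1 is scattered, highest in EIC 2 and then in EIC 3.

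The list of score-related genes shrank, and in part changed its members, when rich tumours were left out. Without 16IC 1, edgeR called 5 genes outside the members (Des, Apobec2, Myo18b, Eef1a2 and Mylf-ps), and these 5 were called in all 10 fits that left out 1 tumour. Over those fits the count ran from 5 to 36. Without EIC 2 alone it was 28, of which 19 were among the 31. The rest were Ubd, Pigr, Amigo2, AW112010, Gls2, Gbp2b, Slc2a6, Samhd1 and Ass1. Without EIC 1 and EIC 2 it was 17, of which 5 were among the 31 (Eef1a2, Mylf-ps, Myot, Ckmt2 and Pcx). Most of the 17 were thus new: Gm5970, Pigr, Gm4841, Igtp, Iigp1, Gbp2, AW112010, 2610528A11Rik, Ifi47, Slc2a6, H2-Q6 and Samhd1. Slc2a1 was called in 7 of the 10 fits, Pcx and Plod1 in 6, and Rlf and Cxxc5 in 1.

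Genotype differences were then compared between the fits with and without the muscle score. The score is the mean of the members themselves, so adding it takes their genotype difference towards 0 by construction, and the members' values in this fit are no finding. The members' median log2 difference of 16IC over EIC was 0.10 with the score in the model, 16 of 29 turned positive, and DESeq2 called 0 members and 0 of the 5 other muscle genes it had called before, against 1.85% of all genes called lower in 16IC. The 14886 other genes moved by a median of 0.11, 1039 of them (6.98%) by over 0.5 and 277 by over 1, and 1531 changed sign. DESeq2 called 535 genes in place of 356, with 232 in both sets, and edgeR called 0 genes in both fits (2077 with and 1958 without the score at an unadjusted p under 0.05). Of the 356 calls, 305 were tested by edgeR. Of these 305, 7 had an r above 0.8 with the score, among them the 4 called members, which make the score. These 4 members were also called for the score by edgeR, and outside the members 1 of the calls was.

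**Figure D5:**
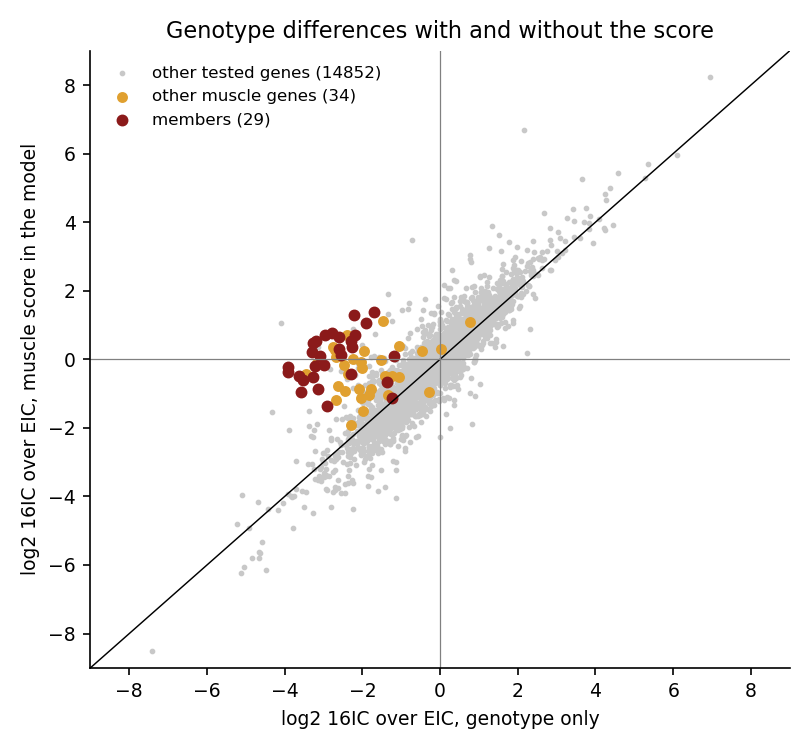
Log2 difference of 16IC over EIC for each tested gene, with genotype alone (x axis) and with the muscle score as a further term (y axis); the diagonal marks no shift. The 29 members (dark red) and most of the 34 other muscle genes (orange) leave the diagonal towards 0, and most of the other genes (grey) lie near it, 1039 of them shifted by over 0.5.

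Markers of other cell types were set beside the muscle score. Over the 10 tumours, the r of log2 summed CPM with the muscle score was 0.298 for 14 adipocyte genes, 0.265 for 12 smooth muscle and myoepithelial genes and 0.308 for 10 keratinocyte genes. It was -0.345 for 9 peripheral nerve genes and -0.263 for 10 luminal genes. On this same measure it was 0.803 for the 55 other skeletal muscle genes. Without the 2 tumours farthest from the median score, r was 0.486 for the adipocyte, 0.247 for the smooth muscle and myoepithelial, 0.559 for the keratinocyte, -0.884 for the nerve and 0.279 for the luminal genes. The luminal value thus turned its sign. The luminal sum ran from 4777 to 6276 CPM in 16IC and from 4367 to 7085 CPM in EIC, and the adipocyte sum from 211 to 701 CPM in 16IC and from 176 to 743 CPM in EIC. The smooth muscle and myoepithelial sum ran from 121 to 379 CPM in 16IC and from 238 to 741 CPM in EIC. Single genes weigh heavily in these sums. Pnpla2, in the adipocyte list, ran from 171 to 277 CPM in 16IC and from 106 to 368 CPM in EIC. Krt14, in the smooth muscle and myoepithelial list, reached 12.9 CPM in 16IC and 465 CPM in EIC. Adipoq, adiponectin, was at 1.44 CPM in 16IC 1, rich in muscle, and at 24.3 CPM in 16IC 2, poor in it. In EIC 2, the richest, it was at 4.62 CPM, below the EIC median of this gene. The adipocyte sum was 386, 701, 211, 381 and 503 CPM in tumours 1 to 5 of 16IC. In tumours 1 to 5 of EIC it was 659, 255, 176, 645 and 743 CPM. In each genotype this sum was lowest in the tumour poorest in muscle (16IC 3 and EIC 3), but EIC 2 was next lowest in EIC. The keratinocyte sum was highest in EIC 1 at 23.9 CPM, against 6.23 CPM or less in every other tumour. What part these other cell types have in the muscle gene values was not tested.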

How the data were processed

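Bulk RNA of 10 tumours was measured, 5 per genotype, after Qiagen RNeasy extraction and NEBNext Ultra II library preparation, per the labels' protocols. The tools named in the submitters' processing notes are Trimmomatic, STAR, HTSeq, limma and edgeR, with genome build GRCm38 (mm10), and no version, annotation release or strand setting is stated. The authors deposited raw read counts per gene, which all tests use. The deposited FPKM values of the authors were used only to compare heavy chains and troponins per length. The authors' normalized columns, a signal equal to counts divided by 1 factor per tumour, were not used. From the authors' deposited table of log2 fold changes, 1 adjusted p-value is quoted.

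The test was that of edgeR 4.0.16 on TMM-scaled libraries (robust quasi-likelihood fit, filterByExpr with minimum count 10, Benjamini-Hochberg adjustment over all 14915 genes tested, threshold 0.05) in R 4.3.3. DESeq2 1.42.0 was the alternative. Fits with the score added the centred muscle score to genotype. Log2 CPM used a prior count of 2. Depth was 14813940 to 16947400 counts. Shares have exact Clopper-Pearson 95% intervals. Overlaps come from GENCODE mouse release 21, in which 33 of the 34 genes have the same coordinates. Libraries of a genotype differed far beyond sampling noise, with a chi-square per degree of freedom of at least 26.3 over pairs. Labels name 1 animal per tumour and no batch. The scripts were tested on simulated counts. The member genes, lists and rules for naming genes were chosen with earlier results of these data known. Named genes are the members, the 10 other genes with the highest and the 5 with the lowest r with the score, and list genes that a fit called. Of the genes this rule names, 1 is not reported here.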

Additional observations from a re-analysis of the deposited data

Results flagged for a closer look

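In 6 of 80 groups of 5 tumours compared, 1 tumour lay far from the other 4 by Dixon's test, and chance alone marks about 1 in 20 groups. That rate does not hold where 4 tumours are tied at 0 counts. Any count in the fifth tumour is then flagged, as for Myh7 in 16IC 1 and Myh8 in EIC 1. The 80 groups are also not independent, since the genes vary together. Of these 6, 5 concern 16IC 1, the 16IC tumour with the most muscle. There Myh7 stood at 0.43 log2 CPM, against -3.02 (0 counts) in the other 4. Myh8 stood at 0.64 log2 CPM, against -2.38 or less. Eno3 stood at 4.001 log2 CPM, against 2.11 to 2.63. Ampd1 stood at 0.89 log2 CPM, against -2.05 or less. The muscle genes took 0.0605% of its counts, against 0.0114% or less. In EIC, Myh8 stood at -1.28 log2 CPM in EIC 1, from 5 counts, against -3.02 in the other 4. Most of these values rest on few counts.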

How the results depend on the processing

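All 29 tested members were lower in 16IC under every other scaling, filter and single left-out tumour tried (27 of 27 with the 1 CPM filter). By DESeq2, 356 genes in place of 0 were called between genotypes, 4 members in place of 0, 191 genes outside the members with the score in place of 31, and 535 between genotypes with the score in the model in place of 0. Without a count filter, 62 genes were called for the score. With the filter of 1 CPM in 5 libraries, 3 were called between genotypes with the score in the model. With single tumours left out, genes called between genotypes ran from 0 to 2, with the score in the model from 0 to 12, genes called for the score from 5 to 36, and members called by DESeq2 from 0 to 18. With the score in the model DESeq2 called 0 members. Without both EIC 1 and EIC 2, an alternative chosen after seeing the data, as were those on the DESeq2 member calls, 5 genes were called between genotypes, 17 for the score and 0 members by DESeq2. These log2 differences then turned positive: Myh1 0.16, Myh2 0.49, Tnnt1 0.10, Ttn 0.82, Neb 0.37 and Xirp2 0.73. The cause was not tested. No paired analysis was possible because the tumour numbers only follow the order of the samples. Depth limits the slow genes other than Mybpc1 and the developmental genes, which have 0 to 107 counts per tumour, and the fibre mix of 16IC 3, 16IC 5 and EIC 3, each with 40 heavy chain counts or fewer.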
